A study of Mus musculus with 16 samples.

Results

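Polysomal RNA of AML12 cells with an shRNA against eIF6 was compared with polysomal RNA of the same cell line with a scramble shRNA. AML12 is a line of mouse hepatocytes. The comparison took the samples titled as polysomal in each of these conditions, which are 8 of the 16 arrays in the series, 4 with each shRNA. The other 8 arrays hold subpolysomal RNA of the same conditions and are used here beside single results. Cells of both groups carried a lentiviral shRNA that doxycycline switches on, were selected as infected lines, received doxycycline, and were stimulated with insulin for 1 h. The labels give the insulin as 100 nM in one field and as 100 mM in another, and the methods give nM. Neither group lacked doxycycline or insulin, so no value here bears on the response to either. Heavy gradient fractions were pooled as polysomal RNA, and each RNA was hybridized alone on a one-colour Agilent array.

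eIF6 is an initiation factor that binds the 60S ribosomal subunit, helps it mature in the nucleolus and keeps it from joining the 40S subunit too early. In liver and other insulin-sensitive cells it is known for letting insulin raise protein synthesis. An mRNA that carries several ribosomes sediments with polysomes, so its level in this fraction depends both on how much of the mRNA the cell holds and on how much of it is translated. These cannot be told apart in polysomal RNA alone. In bulk RNA, fewer cells of a type and less RNA per cell cannot be told apart either.

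Levels are log2 intensities after quantile normalization, a change is the mean of eIF6 shRNA arrays minus the mean of scramble arrays, and a gene was called when limma gave an adjusted p under 0.05. Between 22071 and 24532 of 39429 probes per polysomal array were well above background. The correlation between arrays of one shRNA was 0.988 to 0.9949, and no probe reached saturation. Precision is set by how many arrays there are. Each of the 4 slides held 1 array of every group. The methods call the 4 arrays of a group biological replicates. They do not say whether these came from separate infections. An effect of the shRNA and a difference between the infected lines therefore cannot be told apart. The adjusted p-values measure the spread between arrays of a group.

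Eif6 itself was read by 3 probes on the minus strand of chromosome 2 (mm9). Its level on the scramble arrays was 12.96, 12.94, 12.96 and 12.94. On the eIF6 shRNA arrays it was 11.92, 12, 11.85 and 11.81. Every eIF6 shRNA array lay below every scramble array, and Eif6 fell by 1.05 (SE 0.08, adjusted p = 1.45e-07, 2.08-fold). The decrease lay between 0.94 and 1.15 on each of the 4 slides. On the spike-in scale described below it was -1.37 and was not called (adjusted p = 0.104). In subpolysomal RNA its levels were 11.53, 11.55, 11.65 and 11.66 with scramble and 11.73, 11.49, 11.74 and 11.50 with the eIF6 shRNA, which overlapped. The subpolysomal change was 0.015, and the difference between the changes in the fractions was called (-1.07, adjusted p = 0.000145). The probes differed in size of change. One, mapped at chr2:155645718-155645777, changed by -1.38 and another at chr2:155648573-155648632 by -1.26, while the third, at chr2:155650902-155650961 and designed on a cDNA clone, had a far lower level and changed by -0.52. The middle probe is shown here, since it reads the targeted mRNA upstream of the probe nearest the 3′ end of the gene.
Eif6 probe: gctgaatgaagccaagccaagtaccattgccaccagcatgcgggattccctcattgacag

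The labelled cell type was checked against markers. Of 10 hepatocyte markers, 8 were well above background on all polysomal arrays of both shRNAs, among them Hnf4a, Ttr, Apob and Krt18. The exceptions were Alb, the gene of albumin, which was well above background on 3 of 4 scramble and 2 of 4 eIF6 shRNA arrays, and Apoa1, on 1 and 2. The summed hepatocyte marker level (log2 of the summed intensities) was 18.38 to 18.97 with scramble and 18.52 to 19 with the eIF6 shRNA. Fibroblast and stellate cell markers were also present. Of 10, all but Lrat and Lum were well above background on every scramble array, and their summed level was 16.51 to 17.13 with scramble and 14.45 to 15.01 with the eIF6 shRNA. Markers of macrophages and endothelium were split. Of the macrophage markers, Csf1r and Cd68 were well above background on every polysomal array, Ptprc on 3 arrays with each shRNA, Emr1 on 3 with scramble and 4 with the eIF6 shRNA, and Clec4f, Lyz2 and C1qa on none. Of the endothelial markers, Pecam1, Kdr and Vwf were well above background on every polysomal array and Cdh5, Tek, Stab2 and Lyve1 on none. Among bile duct markers Krt7, Krt19, Sox9 and Spp1 were well above background on every polysomal array. Epcam was on 1 of 4 scramble and 3 of 4 eIF6 shRNA arrays, and Cftr on none.

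Of 19367 genes tested, 2072 were called lower on polysomes with the eIF6 shRNA (10.7%) and 2148 higher (11.1%), 21.8% in either direction. The larger changes leaned downwards. Among the genes called, 875 lower and 490 higher changed 2-fold or more, 238 and 76 changed 4-fold or more, and 51 and 20 changed 8-fold or more. The median change of all genes was 0.0155. In 1860 of the genes called lower and 1733 of those called higher the arrays of the shRNAs did not overlap, where 11.4% and 11.1% of all genes tested did not overlap in these directions. Within slides, 2020 of the genes called lower and 1991 of those called higher had the same sign on all 4. With the slide as a block, 2209 were called lower and 2282 higher.

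The direction of small changes depended on the scale. Quantile normalization sets the total of every array equal, so a loss of polysomal mRNA shared by all genes cannot be seen. With spike-in probes as the scale, the median of all genes moved to -0.481, and 1044 genes were called lower and 98 higher, so that 91.4% of the calls were lower against 49.1% on the main scale. The spike-in level itself ranged from 11.08 to 12.53 among the scramble arrays. On this scale the standard error was 0.509 for Eif6 and for the named genes that lost the call or changed sign. That is larger than the shift of the median, so the shift does not establish a shared loss. Equal amounts of RNA were loaded on the gradients, so this scale does not give polysomal mRNA per cell. Of the genes called higher, 623 had a change below 0 on the spike-in scale. Of the genes named by rule, 37 besides Eif6 kept their direction there and lost the call, among them Perp, Trp53inp1, Mdm2, Aldoc, Onecut1, Cebpd, Elovl6, Lpin1, Abcc2, Atf3, Vwf, Itgam, E2f2, Foxm1, Ube2c, Eif5a2, Eif3f, Ebna1bp2, Mrpl41 and Rps24. Scaling to the 75th percentile gave 2245 lower and 1848 higher, so that 54.8% were lower. All changes below are therefore relative to the median gene. Every gene list median given below as above 0 was below 0 on the spike-in scale before the shift of all genes was taken off.

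Among genes called, well above background on all 8 arrays, without overlap and with a plain gene name, Dpep1 had the largest decrease. It encodes a dipeptidase of the cell surface. Its levels were 8.70, 8.42, 8.29 and 8.88 with scramble and 4.54, 4.31, 4.46 and 4.28 with the eIF6 shRNA. It fell by 4.18 (SE 0.16, adjusted p = 2.39e-10), or 18.1-fold, with no overlap. Creb3l1 encodes a transcription factor anchored in the endoplasmic reticulum that is known for activating collagen genes. Its levels were 13.90, 13.70, 13.75 and 13.88 with scramble and 9.65, 9.90, 9.53 and 9.53 with the eIF6 shRNA. The groups lay far apart, and Creb3l1 fell by 4.15 (SE 0.12, adjusted p = 3.37e-11). Col1a2, the gene of the second chain of type I collagen, fell by 3.53 (SE 0.21, adjusted p = 1.48e-08), and its levels of 16.41, 16.35, 16.23 and 17.08 with scramble placed it among the brightest genes. With the eIF6 shRNA they were 12.63, 12.87, 12.90 and 13.56. The groups did not overlap, and replicate 4 was the highest in each of them. Lox, whose lysyl oxidase cross-links collagen and elastin, fell by 3.49 (SE 0.17). Chst1, of a sulfotransferase that modifies carbohydrate chains, fell by 3.38, Slpi, of a secreted inhibitor of leukocyte proteases, by 3.32, and Tmem45a by 3.31.

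**Figure D1:**
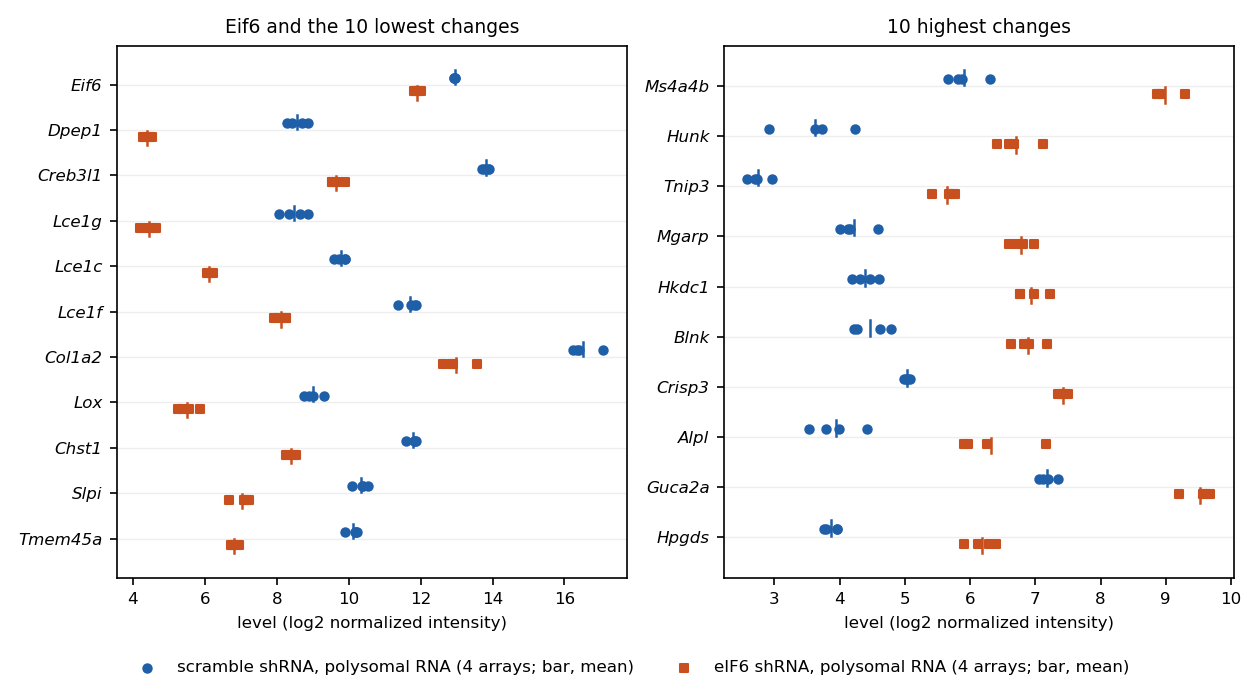
Levels (log2 normalized intensity, x axis) of Eif6 and of the 10 genes with the largest decreases (left) and increases (right) on each polysomal array. Blue circles are the 4 scramble arrays, orange squares the 4 eIF6 shRNA arrays, and short bars the group means; in every gene shown the groups do not overlap.

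The remaining 3 of the 10 largest decreases were Lce1g, Lce1c and Lce1f, genes of the late cornified envelope, the protein shell of skin keratinocytes. Lce1g stood at 8.65, 8.35, 8.87 and 8.05 with scramble and at 4.54, 4.38, 4.65 and 4.21 with the eIF6 shRNA. It fell by 4.04 (SE 0.21, adjusted p = 4.15e-09). Lce1c fell by 3.66 (SE 0.12) and Lce1f by 3.59 (SE 0.13), in both cases without overlap. A second probe for Lce1c was not well above background on any polysomal array and was left out. These genes belong to a cluster on chromosome 3, where the probes of the 9 family members tested lie between positions 92472592 and 92821888 (mm9), a stretch of 349 kb. A look at the whole family, made after its values had been seen, found 7 of the 9 called lower and none higher, with a median of -2.87. The others called were Lce1h (-3.39), Lce1i (-2.87), Lce1j (-1.48) and Lce1a2 (-1.07). Lce1m (-0.10) and Lce3d (0.35), at the far end of the cluster, were not called. The copies are similar in sequence, so a probe can take signal from a neighbour, and 2 probes for Lce1a2 gave -0.11 and -2.02.

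Because the Lce1 genes moved together, the RefSeq promoters of the members that changed most and have an entry are shown (GRCm38.p6, the 250 bases before the start site). Capitals mark a 9-base word, AATAAAAGG, that both hold with its first base 30 bases before the start. The Lce1c promoter lies at chr3:92678997-92679246 on the plus strand and that of Lce1g at chr3:92752339-92752588 on the minus strand, and they are 66.1% identical in a global alignment.
Lce1c: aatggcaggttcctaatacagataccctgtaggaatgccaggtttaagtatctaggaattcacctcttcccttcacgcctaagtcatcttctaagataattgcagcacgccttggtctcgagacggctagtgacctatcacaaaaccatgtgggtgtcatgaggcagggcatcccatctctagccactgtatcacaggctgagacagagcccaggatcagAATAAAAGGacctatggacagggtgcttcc
Lce1g: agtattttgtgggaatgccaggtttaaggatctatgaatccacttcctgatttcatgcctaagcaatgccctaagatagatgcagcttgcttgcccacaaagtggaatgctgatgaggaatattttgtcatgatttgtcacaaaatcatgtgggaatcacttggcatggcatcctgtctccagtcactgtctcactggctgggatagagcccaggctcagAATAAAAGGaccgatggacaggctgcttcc
The word was picked by eye from these promoters and then searched on both strands. It occurred in 6 of the 8 promoters of tested family members with an entry, those of Lce1a2, Lce1c, Lce1g, Lce1h, Lce1i and Lce1j. The pair it was picked from is among these, so the count describes the family and tests nothing. Of 32851 mouse promoters, 0.463% held the word. Lce1f had no entry.

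By the same selection, each of the 10 largest increases was smaller than the 10 largest decreases. Ms4a4b encodes a membrane protein known from T cells. Its levels were 5.87, 5.82, 5.66 and 6.30 with scramble and 8.87, 8.92, 8.89 and 9.30 with the eIF6 shRNA. It rose by 3.08 (SE 0.51, adjusted p = 0.00036), without overlap. Hunk, of a protein kinase of the SNF1 family, rose by 3.07 (SE 0.33) and Tnip3, of an adaptor that restrains NF-κB signalling, by 2.90 (SE 0.22). One of the 2 probes for Tnip3 was not well above background on any scramble array. Hkdc1, a gene of the hexokinase family, stood at 4.31, 4.47, 4.18 and 4.61 with scramble and at 6.77, 6.76, 6.98 and 7.23 with the eIF6 shRNA. It rose by 2.54 (SE 0.20, adjusted p = 2.08e-07). Blnk, of an adaptor in B cell receptor signalling, rose by 2.41, Guca2a, of the gut peptide guanylin, by 2.34, Alpl, of tissue-nonspecific alkaline phosphatase, by 2.38, and Hpgds, of a prostaglandin D synthase, by 2.31. Mgarp (2.56) and Crisp3 (2.39) completed the 10.

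Some genes were detected with one shRNA only. In 87 genes (0.288% of 30214 gene names) a probe was well above background on all scramble arrays while no probe of the gene was on any eIF6 shRNA array. In 41 genes (0.136%) the reverse held. For these a fold change is a lower bound, the mean of the bright arrays over the dimmest level that counted as well above background or the probe's own level, whichever was higher. The median bound was 2.60-fold for genes seen with scramble and 2.43-fold for genes seen with the eIF6 shRNA, and 79 and 39 of them were called.

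The genes seen only with the eIF6 shRNA included the widest separations of the comparison. Ccdc81, of a coiled-coil protein, had levels of 9.67, 9.43, 9.52 and 9.24 with the eIF6 shRNA and of 0.84, 0.88, 0.84 and 0.86, not well above background, with scramble. It was at least 109-fold higher (adjusted p = 4.4e-07), and its single probe lies at chr7:97014951-97015010 on the minus strand (mm9). Il1rapl1, of a synaptic membrane protein related to the interleukin-1 receptor, was at least 64.2-fold higher. Its signal came from 1 of 3 probes, the one named for a cDNA clone, while the 2 probes named for the RefSeq transcript were not well above background with either shRNA. Sbk3, of a kinase, was at least 30.7-fold higher, Try4, of a trypsin, at least 10.0-fold and Stx19, of a syntaxin, at least 8.75-fold. Trypsin genes have close copies whose signal a probe may share. In subpolysomal RNA, Ccdc81, Il1rapl1, Sbk3 and Stx19 were well above background on all eIF6 shRNA arrays, and Try4 on 2 of them. There Ccdc81 was also well above background on 2 of 4 scramble arrays and Il1rapl1 on 1, while the other three were on none.

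Among genes seen only with scramble, Rnf144a, of a ubiquitin ligase, had the largest bound. It stood at 7.08, 6.85, 6.63 and 6.80 with scramble and was at least 16.5-fold lower with the eIF6 shRNA (adjusted p = 6.53e-11). Serpinb2, of plasminogen activator inhibitor 2, was at least 9.90-fold lower, C1qtnf5, of a secreted C1q-like protein, at least 8.91-fold, Slc7a8, of an amino acid transporter, at least 7.32-fold, Pdgfra, of the α receptor for platelet-derived growth factor, at least 7.1-fold, and Sema5a, of a semaphorin, at least 6.48-fold. C1qtnf5 was not well above background on any subpolysomal array. The other five were well above background on all subpolysomal scramble arrays, and Rnf144a and Slc7a8 also on 1 of 4 subpolysomal eIF6 shRNA arrays each.

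**Figure D2:**
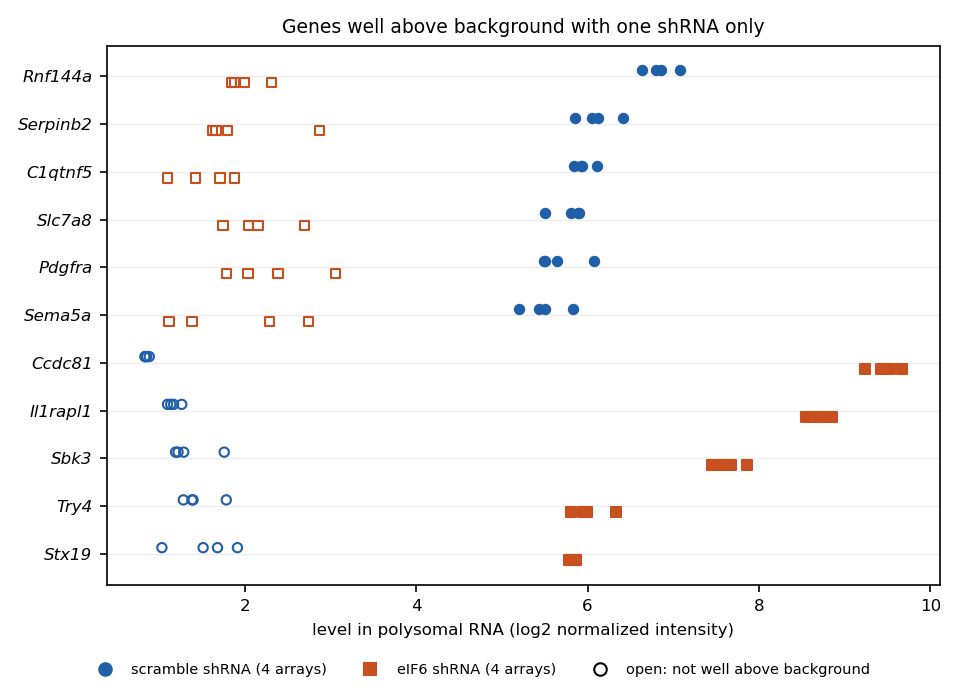
Levels (log2 normalized intensity, x axis) on each polysomal array of genes well above background with one shRNA only, 6 seen with scramble and 5 with the eIF6 shRNA, out of the 6 largest bounds in each direction. Circles are scramble arrays and squares eIF6 shRNA arrays, and open symbols were not well above background; the open and filled symbols of a gene do not overlap.

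Genes of the extracellular matrix were lower as a group. Collagens form the fibres and sheets of the matrix, and their chains are hydroxylated, folded and cross-linked by enzymes that work in the secretory pathway or outside the cell. Of 30 collagen chains tested, 15 were called lower and 2 higher, with a median change of -0.572 beside 0.0155 for all genes. Type I collagen stood at the head of the list with Col1a2, above. Its other chain, Col1a1, had levels of 13.65, 13.63, 13.30 and 14.45 with scramble and of 10.40, 10.27, 10.7 and 11.21 with the eIF6 shRNA, and fell by 3.11 (SE 0.24, adjusted p = 1.84e-07). Col3a1, of a fibrillar collagen that forms fibres together with type I, fell by 2.96 (SE 0.27). The chains of the beaded filament collagen VI, Col6a1, Col6a2 and Col6a3, fell by 2.62, 2.33 and 2.94, and Col5a1 and Col5a3, of collagen V, by 2.72 and 2.43. Col11a1 was well above background on 3 scramble arrays and on no eIF6 shRNA array. The basement membrane chains Col4a1 and Col4a2 fell less, by 0.79 and 0.70. Col15a1 and Col27a1 rose, by 0.76 and 0.61.

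The enzymes and chaperones that build collagen followed the same direction. Of 29 tested, 18 were called lower and 2 higher, with a median of -0.811. Rcn3, a calcium-binding protein of the endoplasmic reticulum, had levels of 13.46, 13.35, 13.17 and 13.91 with scramble and of 10.24, 10.40, 10.38 and 10.57 with the eIF6 shRNA. It fell by 3.07 (SE 0.16, adjusted p = 4.08e-09). Crtap, a subunit of the prolyl 3-hydroxylase complex, fell by 2.57 (SE 0.15), and Fkbp10 and Fkbp7, prolyl isomerases of the endoplasmic reticulum, by 2.42 and 2.20. Serpinh1, of the collagen chaperone HSP47, fell by 0.83. Adamts2, which trims the ends of procollagen, fell by 2.12, and the cross-linking enzymes Loxl1 and Loxl3 by 2.05 and 1.5, while Loxl2 (0.51) and Loxl4 (0.34, and -0.119 on the spike-in scale) rose.

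Other matrix proteins gave the lowest median of the 31 lists. Of 49 glycoproteins, proteoglycans and elastic fibre genes, 30 were called lower and 2 higher, with a median of -1.03. Thbs1, of the adhesive glycoprotein thrombospondin 1, fell by 2.75 (SE 0.23, adjusted p = 5.21e-07). Its levels were 11.88, 11.89, 11.53 and 11.90 with scramble and 8.68, 8.69, 9.20 and 9.60 with the eIF6 shRNA, with no overlap. Among microfibril genes, Mfap5 fell by 2.73 (SE 0.12) and Fbn1, of fibrillin 1, by 2.70 (SE 0.16). The small proteoglycans Bgn and Dcn fell by 1.57 and 1.77, the collagen-binding glycoprotein Sparc by 1.98 and fibronectin, Fn1, by 0.83. Postn, of periostin, was detected with scramble only and was at least 2.95-fold lower. The laminin chains split. Lamb1 (-1.34) and Lama4 (-1.44) fell, while Lama5 (0.44, and -0.0158 on the spike-in scale), a chain of epithelial laminins, rose.

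Genes that cut or protect the matrix were lower too. Of 29 metalloproteinases and inhibitors, 12 were called lower and 3 higher, with a median of -0.39. Mmp2, a gelatinase, fell by 2.00 and Mmp23 by 2.10 (SE 0.15, adjusted p = 1.15e-07), and their inhibitors Timp1 and Timp3 both by 1.27. Adamts5 and Adamts1, of proteases that cleave proteoglycans, fell by 2.06 and 1.22. Mmp9, the other gelatinase, was well above background on 3 of 4 scramble arrays and on no eIF6 shRNA array. Mmp13, an interstitial collagenase, rose by 1.14.

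Markers of fibroblasts and stellate cells, the collagen-producing cells of the liver, moved with the matrix genes. In the list of 25 mesenchymal and stellate genes 13 were called lower and 2 higher, with a median of -0.682. Relative to the median gene this median was -1.07 without scramble replicate 1 and -1.11 without scramble replicate 4. Pdgfrb, of the β receptor for platelet-derived growth factor, had levels of 9.35, 9.27, 9.18 and 9.74 with scramble and of 6, 6.14, 6.28 and 6.75 with the eIF6 shRNA. It fell by 3.1 (SE 0.16, adjusted p = 3.21e-09). Thy1, a surface glycoprotein of fibroblasts, fell by 2.45, Acta2, of smooth muscle actin, by 2.73, and Tagln, of an actin-binding protein, by 2.33. The transcription factors Twist1, Prrx1 and Snai1 fell by 2.24, 2.06 and 1.93, and Lhx2 by 3.29, with 1 of 4 eIF6 shRNA arrays well above background. Vim, of vimentin, was not called (-0.38, adjusted p = 0.314), and Cnn1, of calponin 1, rose by 1.29. Of the 8 fibroblast and stellate markers tested in the check of the cell type, 7 were called lower and none higher (limma; Vim was the exception), their summed levels were those given above, and the defining markers Lrat and Lum were not well above background on any polysomal array. Of the 7, Col1a1 and Dcn are matrix genes given above, and Pdgfrb, Thy1 and Acta2 are genes named in this paragraph. The counts therefore overlap. The part of fibroblasts and stellate cells in the change of the matrix genes was not tested.

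The size of these list medians rested on how dim signals were treated. With normexp background correction, which draws dim signals together, the medians relative to the median gene were -0.285 for collagens, -0.483 for other matrix proteins, -0.512 for collagen modification, -0.111 for metalloproteinases and -0.397 for the mesenchymal list. All of them kept their direction.

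**Figure D3:**
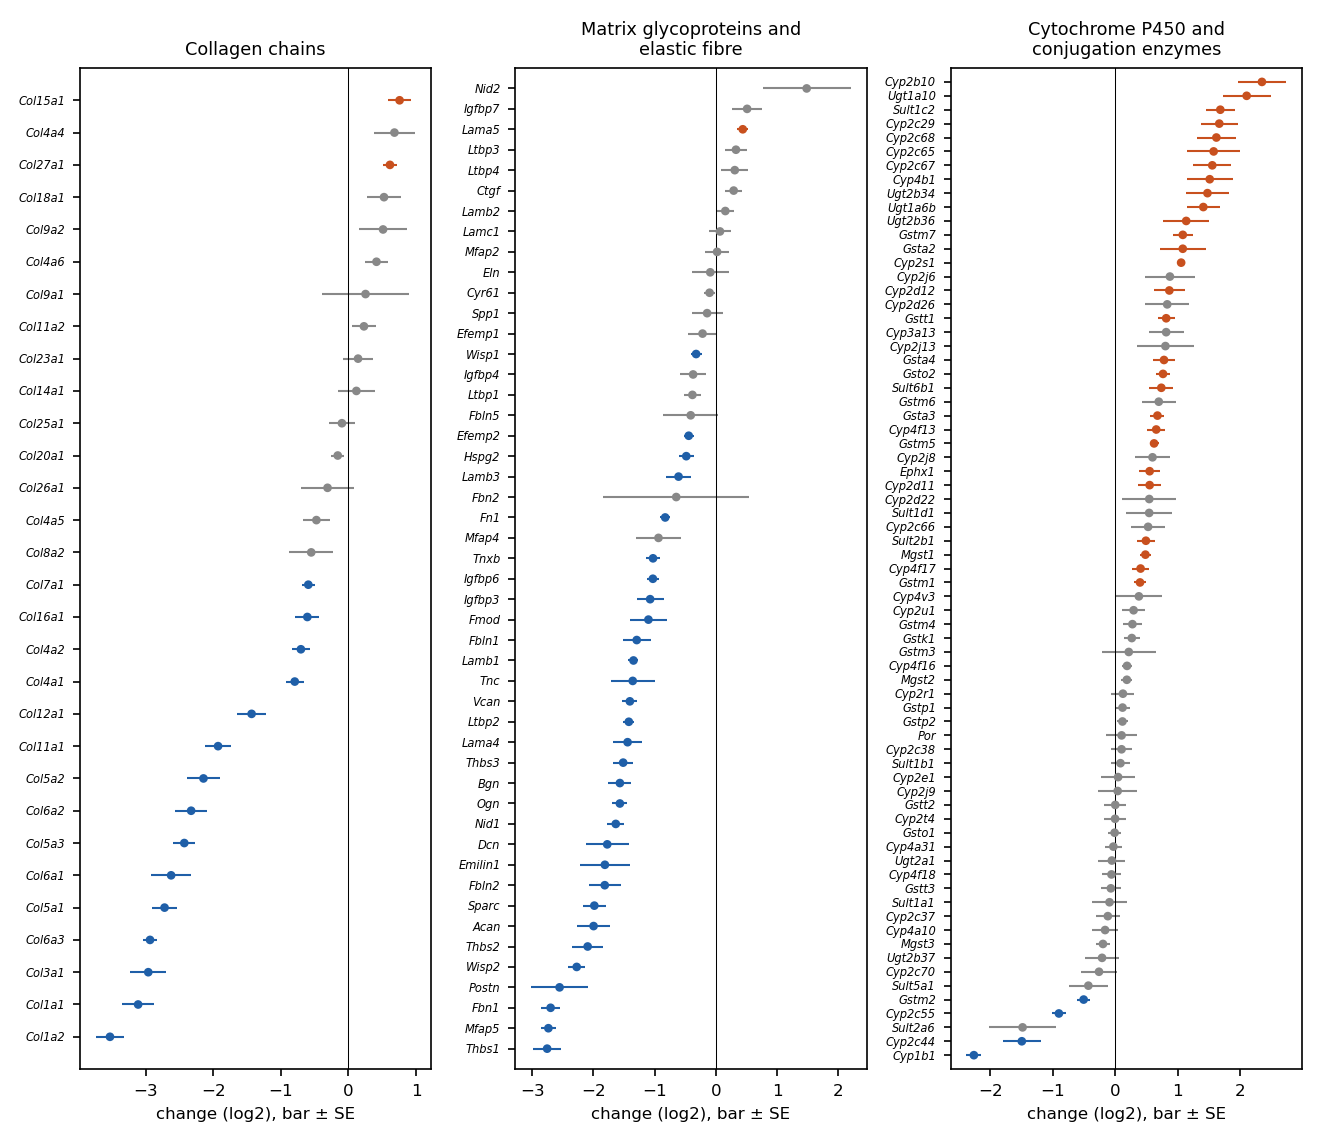
Polysomal change (log2, x axis) of 30 collagen chains, 48 matrix glycoprotein or elastic fibre genes, and 71 cytochrome P450 or conjugation enzymes, with bars of ± 1 SE. Blue genes were called lower, orange genes higher and grey genes neither; 15, 30 and 4 genes are blue, and 2, 1 and 28 are orange. One of the 49 genes of the second list, called higher, is not drawn. Genes not well above background with one shRNA, such as Postn and Col11a1, stand at their fitted value.

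Enzymes that process drugs and other foreign compounds went the other way. Cytochromes P450 oxidize such compounds, and glutathione, glucuronosyl and sulfo transferases make them soluble. Of 71 tested, 28 were called higher and 4 lower, with a median of 0.404, the highest of all lists, which on the spike-in scale was -0.0513 (0.43 above the median gene there). Ugt1a10, a glucuronosyltransferase, had levels of 3.96, 3.67, 3.84 and 4.77 with scramble and of 5.94, 5.94, 6.27 and 6.48 with the eIF6 shRNA. It rose by 2.10 (SE 0.39, adjusted p = 0.000925), without overlap. Cyp2b10, the classic target of the receptor CAR, rose by 2.34 (SE 0.38, adjusted p = 0.000355), from levels of which 1 of 4 was well above background with scramble to levels that all were. Among the others, Cyp2c29 rose by 1.66, Sult1c2 by 1.68, Cyp2s1 by 1.05, Gstt1 by 0.81 and Gsta4 by 0.78. With normexp background correction the median of the list, relative to the median gene, was 0.156. Many of these enzymes have near-identical copies, and Cyp2c and Ugt1a genes in particular may share signal. Cyp1b1, a P450 found mostly outside hepatocytes, fell by 2.26 (SE 0.12, adjusted p = 4.15e-09), from 10.74, 10.57, 10.57 and 11.01 to 8.42, 8.47, 8.4 and 8.56.

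Transcription factors of hepatocytes and the plasma proteins that hepatocytes secrete moved in both directions. Of 28 factors, 8 were called higher and 4 lower, with a median of 0.17 (-0.314 on the spike-in scale). Onecut1, also known as HNF6, rose by 1.2 (SE 0.15), from 7.94, 8.27, 8.23 and 7.50 to 9.24, 9.45, 9.09 and 8.95, without overlap. Cebpa, which drives hepatocyte differentiation, rose by 0.86. Tbx3 fell by 1.75, and Nr1i2, the pregnane X receptor, was well above background on 3 of 4 scramble arrays and on no eIF6 shRNA array. Hnf4a, the central hepatocyte factor, was not called (-0.25, adjusted p = 0.126). Of 46 plasma protein genes, 10 were called lower and 8 higher, with a median of -0.0972. Ttr, of the thyroxine carrier transthyretin, rose by 1.15 (SE 0.10, adjusted p = 5.54e-07) and Cp, of the copper-carrying ceruloplasmin, by 1.23. Fetub, of fetuin B, fell by 2.24 (SE 0.19), Serpinf1, of pigment epithelium-derived factor, by 1.91, and Ambp, the precursor of α1-microglobulin, by 1.67.

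A minority of the genes of cell division were called, all of them lower. The share called lower was 24.1% in DNA replication and 23.2% in mitosis. Of all genes tested, 10.7% were called lower and 11.1% higher. Of 58 DNA replication genes, 14 were called lower and none higher, with a median of -0.201, and of 56 mitosis genes 13 were called lower and none higher, with a median of -0.297. At an unadjusted p under 0.05, limma gave 20 lower and 0 higher in each of these lists. In the mitosis list 54 of 56 changes were below 0, but its median within single slides ran from -0.84 to 0.0866. Prim2, a primase subunit, fell by 1.02 (SE 0.09, adjusted p = 9.3e-07), from 5.59, 5.56, 5.55 and 5.80 to 4.58, 4.56, 4.61 and 4.67. E2f2, a transcription factor of the S phase, fell by 0.82 and Foxm1, of the G2 and M phases, by 0.74. Ube2c, which marks mitotic proteins for degradation, fell by 0.74 (SE 0.08) and the proliferation marker Mki67 by 0.33. Replication-dependent histones were mixed on polysomes, with 5 of 47 called lower, 4 higher and a median of -0.158. In subpolysomal RNA 34 of them were called lower and 0 higher, with a median of -0.687, where 12.3% of all genes were called lower. Histone genes have close copies, so a probe can take signal from another member.

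More targets of p53 were called higher than lower, and most were not called. The shares were 42.9% higher and 3.57% lower, beside 11.1% and 10.7% of all genes tested. Of 28, 12 were called higher and 1 lower, with a median of 0.269 (-0.216 on the spike-in scale, where it was 0.265 above the median gene). Perp, a junction protein that also acts in cell death, had levels of 14.04, 14.04, 13.94 and 14.12 with scramble and of 15.35, 15.43, 15.08 and 15.41 with the eIF6 shRNA. It rose by 1.28 (SE 0.11, adjusted p = 6.41e-07). Trp53inp1 rose by 1.08, the death receptor Fas by 0.92, the BH3 protein gene Pmaip1 by 0.85 and Cdkn1a, of the cyclin kinase inhibitor p21, by 0.50. The 1 member called lower was Mdm2, of the ubiquitin ligase that degrades p53. It fell by 1.13 (SE 0.07, adjusted p = 2.27e-08), from 17.80, 17.85, 17.78 and 17.63 to 16.68, 16.58, 16.67 and 16.61.

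Immune genes divided by member. Of 46 interferon response genes, 9 were called lower and 13 higher, and the lower ones changed more. Ifi27l2a fell by 2.67 (SE 0.13, adjusted p = 1.84e-09), Ifi27 by 2.45 and Ifitm3, of a membrane protein that blocks virus entry, by 2.46. Ifitm3 stood at 11.70, 11.71, 11.80 and 11.67 with scramble and at 9.23, 9.61, 9.09 and 9.12 with the eIF6 shRNA. Among those that rose were Oasl1 (0.90), the RNA sensor Ifih1 (0.85), Stat2, which carries the interferon signal to the nucleus (0.73), and B2m, the light chain of MHC class I (0.47, and -0.143 on the spike-in scale). Of 39 chemokines and mediators, 9 were called lower and 13 higher. Il6, the main inducer of the acute phase response, had levels of 8.05, 8.18, 8.17 and 7.84 with scramble and of 4.88, 4.93, 5.00 and 4.82 with the eIF6 shRNA. It fell by 3.15 (SE 0.23, adjusted p = 1.15e-07). Ptx3, a pentraxin, fell by 3.05 and Cxcl12, a chemokine of stromal cells, by 1.95, and Tslp, detected with scramble only, was at least 3.64-fold lower. The neutrophil chemokine Cxcl3 (1.17), the monocyte chemokine Ccl2 (1.21) and the adhesion molecule Icam1 (1.49) rose. Of 14 macrophage and endothelial markers tested, 2 were called lower and 1 higher. Csf1r, the receptor for macrophage colony-stimulating factor, fell by 1.67, Itgam, an integrin chain of myeloid cells, by 0.46, and Vwf, an endothelial glycoprotein, rose by 0.69. The values of Csf1r and Itgam are means over probes that did not move together. The Csf1r probes changed by -2.45, -0.05 and -2.515, and the Itgam probes by -0.03, -0.11 and -1.25.

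Antioxidant genes that the factor NRF2 activates were also divided. Of 32, 4 were called lower and 9 higher, with a median of 0.166. Nqo1, a quinone reductase and the standard reporter of NRF2, had levels of 9.74, 9.97, 9.54 and 9.94 with scramble and of 7.59, 7.56, 7.69 and 7.89 with the eIF6 shRNA. It fell by 2.11 (SE 0.16), without overlap, while Abcc2, an exporter of conjugates into bile, rose by 1.14 (SE 0.11). Of 31 immediate early genes, which growth factors induce within minutes, 4 were called lower and 7 higher, with a median of 0.0189. Klf2 fell by 1.01 (SE 0.10), from 8.87, 8.88, 8.90 and 8.71 to 7.86, 7.63, 7.98 and 7.87, and Atf3 rose by 0.67 (SE 0.12). Of 30 epithelial markers, 4 were called lower and 6 higher, with a median of 0.15. Mal2, an apical transport protein, rose by 2.24 (SE 0.14), Itgb6, an integrin chain of epithelia, by 1.37 and Dsp, the desmosome protein desmoplakin, by 1.05, while St14, a membrane protease, fell by 1.68 (SE 0.15). Krt23 was well above background on 3 of 4 scramble arrays and on no eIF6 shRNA array.

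The translation machinery itself changed little on polysomes relative to the median gene. Of 80 cytosolic ribosomal protein genes, 1 was called lower and none higher (2 and 5 at an unadjusted p under 0.05 in limma). Their median was 0.0136, and 35 of 80 were below 0. Relative to the median gene this median was -0.00195, and 0.0723 when arrays were scaled by their 75th percentile. Their quartiles were -0.0517 and 0.0906, beside -0.187 and 0.235 for all genes. Rplp2, one of the brightest, stood at 18.57, 18.58, 18.59 and 18.52 with scramble and at 18.56, 18.55, 18.59 and 18.57 with the eIF6 shRNA, and the groups overlapped. In subpolysomal RNA 28 of the 80 genes were called higher and 2 lower, with a median of 0.163. There 11.8% of all genes were called higher and 12.3% lower.

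The ribosomal protein gene called was Rps24, which makes several splice forms that differ near the end of the coding sequence. Its mean fell by 0.70 (SE 0.10, adjusted p = 0.000132), but its 4 probes did not move together. The probe designed on one transcript form, which spans chr14:25312695-25315015 (mm9) across an intron, read 16.33, 16.29, 16.40 and 15.97 with scramble and 14.38, 14.40, 14.48 and 14.10 with the eIF6 shRNA, a change of -1.91. A probe for another form, also across an intron, changed by -0.85. The other 2 probes, which overlap at chr14:25315021-25315080, changed by -0.0297 and -0.0197. The subpolysomal changes of the 4 probes were -1.02, -0.125, -0.0938 and -0.0907. The call rested on the probes with the larger changes. With the brightest probe alone, which is one of the overlapping pair, Rps24 changed by -0.02974 and was not called (limma, adjusted p = 0.88), and on the spike-in scale it was not called either (adjusted p = 0.354).

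Other parts of the machinery held single members that moved. In the lists of this paragraph the shares ran from 0% to 14.5% lower and from 0% to 8% higher. Of all genes tested, 10.7% were called lower and 11.1% higher. Of 62 translation factors, 9 were called lower and 3 higher, with a median of -0.00324. Eif4e3, a cap-binding protein, fell by 1.17 (SE 0.14), from 6.20, 6.10, 5.90 and 6.07 to 4.76, 5.02, 4.92 and 4.88. Eif5a2, which helps ribosomes through difficult stretches, fell by 0.64, and Eif3f, a subunit of the scaffold of initiation, rose by 0.62 (SE 0.09). Among 25 genes that mature the 60S subunit together with eIF6, 2 were called lower and 2 higher. Ebna1bp2, a nucleolar assembly factor, fell by 0.42 and Nsa2, of a factor in late nucleolar 60S assembly, rose by 0.30, which became -0.16 on the spike-in scale. With its brightest probe alone Nsa2 was not called (limma, adjusted p = 0.278). No aminoacyl-tRNA synthetase of 20 was called by limma (0 lower and 2 higher at an unadjusted p under 0.05). Of 76 mitochondrial ribosomal proteins, 7 were called lower and 1 higher. Mrpl41 was among the lower ones, but of its 2 probes the one well above background on all arrays changed by -0.272, and the other was well above background on 3 scramble arrays and on no eIF6 shRNA array. Of 29 integrated stress response genes, 2 were called in each direction, and Atf4, its main transcription factor, changed by -0.02 (adjusted p = 0.962). Of 30 endoplasmic reticulum chaperone and unfolded protein genes, 2 were called lower and 1 higher.

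**Figure D4:**
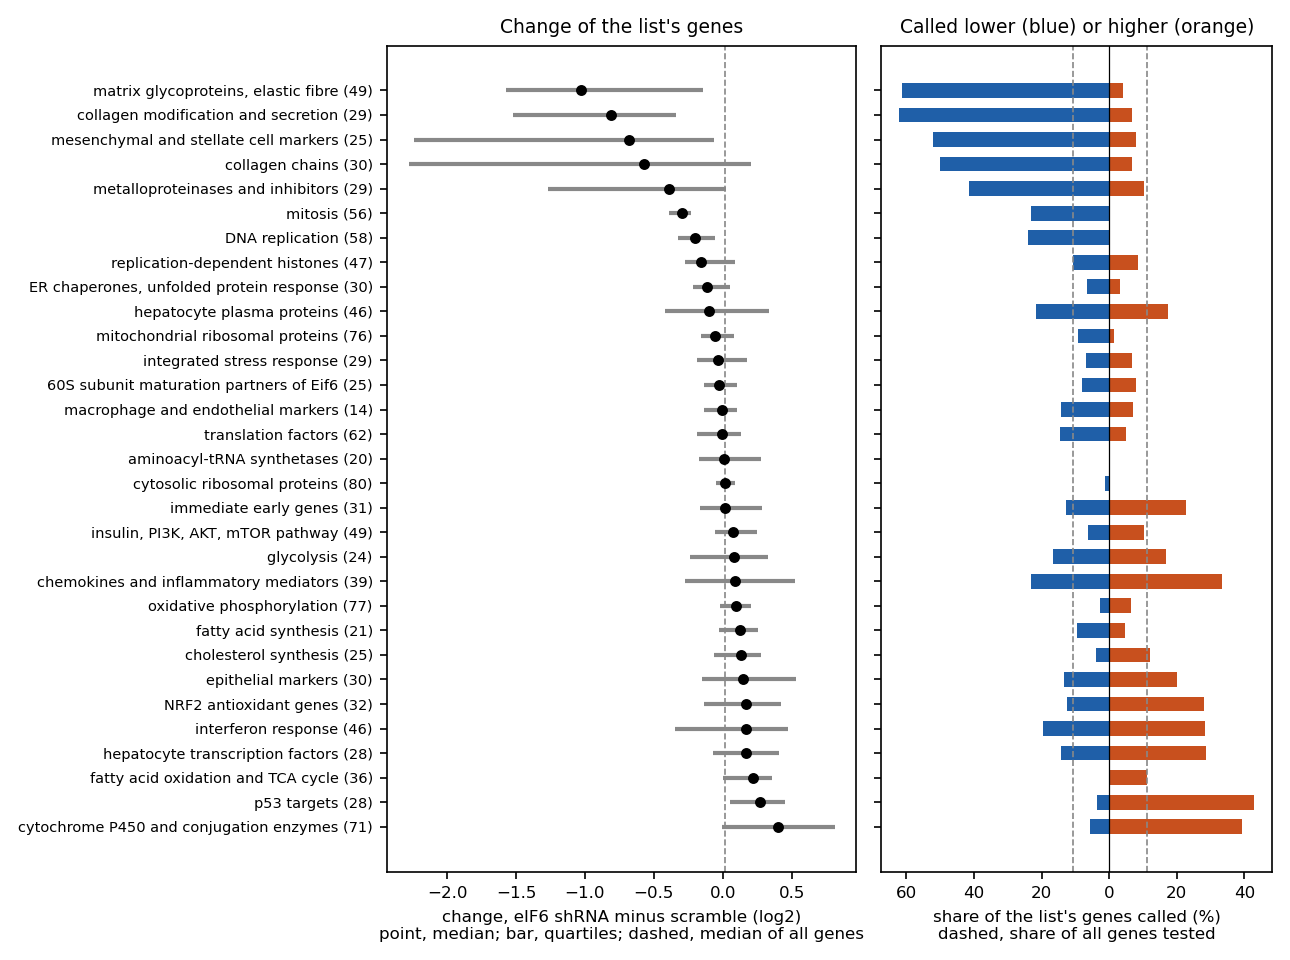
Left, median (point) and quartiles (bar) of the polysomal change (log2) in each of 31 gene lists, with the number of tested genes in brackets and the median of all genes as a dashed line. Right, share of each list called lower (blue) and higher (orange), with dashed lines at 10.7% and 11.1% of all genes tested; matrix lists lie at the top and P450 enzymes at the bottom, and on the spike-in scale all 31 medians are below 0.

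Metabolic lists had medians between 0.0719 and 0.218. Of 24 glycolysis genes, 4 were called in each direction (16.7% each), beside 10.7% lower and 11.1% higher of all genes tested. In the other metabolic lists the shares ran from 0% to 9.52% lower and from 4.76% to 12% higher. Aldoc, a brain-type aldolase, rose by 1.71 (SE 0.15), from 6.91, 7.15, 6.68 and 7.37 to 8.52, 8.54, 8.84 and 9.06. Ldhb, of the heart-type lactate dehydrogenase subunit, fell by 1.55 (SE 0.12, adjusted p = 1.92e-07), from 9.36, 9.65, 9.71 and 9.78 to 7.83, 8.28, 8.06 and 8.15. Neither gene had overlapping groups. Pklr, the liver pyruvate kinase, rose by 0.94 and Slc16a3, a lactate exporter, fell by 1.43. In fatty acid oxidation and the TCA cycle 4 of 36 genes were called higher and none lower (6 and 0 at an unadjusted p under 0.05 in limma). In oxidative phosphorylation 5 of 77 were called higher and 2 lower, and in the insulin, PI3K, AKT and mTOR pathway 5 of 49 higher and 3 lower, with Pik3cd, of a PI3-kinase catalytic subunit, at -1.20.

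Genes of lipid synthesis that the study follows were mostly not called. Fasn, of fatty acid synthase, stood at 6.85, 6.77, 6.84 and 7.17 with scramble and at 6.70, 6.85, 6.90 and 6.95 with the eIF6 shRNA, a change of -0.06 (SE 0.10, adjusted p = 0.775). Acly (0.25), Acaca (0.10), Scd1 (0.19) and Hmgcs1 (0.15) were likewise within the spread of their arrays, as were the regulators Srebf2 (-0.01), Foxo1 (0.17) and Cebpb (0.13). Their standard errors ran from 0.10 for Fasn to 0.25 for Scd1, which limits how small a change could be called. The groups overlapped in each of these genes. Of 21 fatty acid synthesis genes, 2 were called lower and 1 higher. Acacb, the acetyl-CoA carboxylase of the mitochondrial surface, fell by 1.47 (SE 0.15, adjusted p = 2.95e-06), Elovl6, which lengthens fatty acids, by 0.50 (SE 0.11, adjusted p = 0.00495), and Lpin1, of a phosphatidate phosphatase, rose by 0.80. Of 25 cholesterol synthesis genes, 3 were called higher and 1 lower. Cebpd, a transcription factor of fat cell differentiation, fell by 0.95 (SE 0.11), from 10.20, 10.23, 10.33 and 9.90 to 9.53, 9.21, 9.12 and 8.98. Ppargc1a, of the coactivator PGC-1α, rose by 1.99 (SE 0.23, adjusted p = 1.41e-05), from 3.63, 3.74, 3.33 and 4.04 to 5.36, 5.42, 5.58 and 6.31, and its groups did not overlap. That size is partly set by background, since 1 of the 2 probes for Ppargc1a was not well above background on any scramble array. The other probe changed by 1.72.

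Most polysomal changes had a subpolysomal counterpart. Among the 2072 decreases, 1482 genes were called lower in subpolysomal RNA as well, against 12.3% of all genes. Among the 2148 increases, 1308 genes were called higher there, against 11.8% of all genes. The fractions come from the same gradients. The difference between the changes was tested in the same limma fit. It was called lower (more negative on polysomes) in 214 genes (1.10%) and higher in 78 (0.403%), and 150 of the genes called lower and 38 of those called higher on polysomes were among these in the same direction.

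A decrease beyond the subpolysomal one was called in a minority of the matrix genes, though in a larger share than of all genes. It was called in 2 of 30 collagen chains, 4 of 49 other matrix proteins, 7 of 29 genes of collagen modification and 2 of 29 metalloproteinases and inhibitors. Of all genes tested, 1.10% had the difference called lower and 0.403% higher. No gene of these lists had it called higher. Col1a2 changed by -3.53 on polysomes and by -1.22 in subpolysomes (difference -2.31, adjusted p = 0.000792). Rcn3 changed by -3.07 and -0.84 (difference -2.23, adjusted p = 0.000133), Lox by -3.49 and -1.49, and Crtap by -2.57 and -1.25. For Serpinf1 the subpolysomal change was 0.07 beside -1.91 on polysomes (difference -1.98, adjusted p = 0.000145), and for Ldhb it was -0.35 beside -1.55. In the other direction, Aldoc changed by -0.10 in subpolysomes and by 1.71 on polysomes (difference 1.81, adjusted p = 0.000404), and Tnip3 by 0.98 and 1.93 more on polysomes (adjusted p = 0.00446). The difference was not called for the genes that follow, given with the polysomal and then the subpolysomal change. They were Fbn1 (-2.70 and -2.42), Il6 (-3.15 and -3.28), Hkdc1 (2.54 and 2.54), Mal2 (2.24 and 2.13) and Mdm2 (-1.13 and -1.07).

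**Figure D5:**
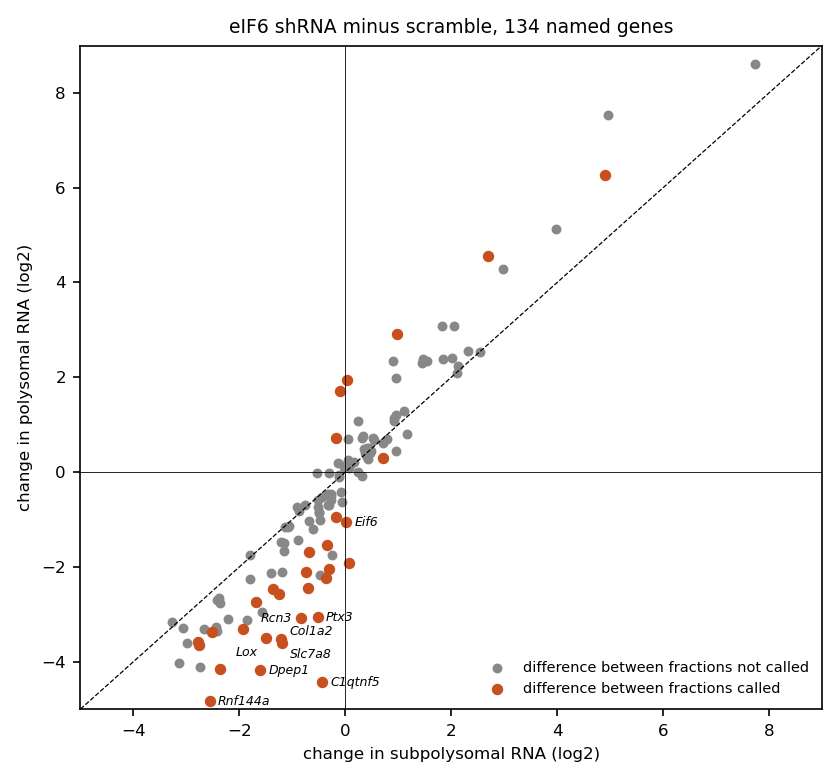
Change in polysomal RNA (log2, y axis) against change in subpolysomal RNA (log2, x axis) of the 134 genes named by rule, with the dashed line where both are equal. Orange points are the 32 genes whose difference between fractions was called; those with a difference beyond 2 and Eif6 are labelled, and most orange points lie below the line on the lower left. Genes not well above background with one shRNA stand at their fitted value.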

How the data were processed

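Polysomal RNA of AML12 cells was measured on 8 one-colour Agilent arrays, and 8 subpolysomal arrays entered the same fit. Spot intensities were deposited by the authors as the scanner software wrote them, with background taken off within each array and without scaling of one array to another (Feature Extraction 10.7.3.1 per the file headers and 10.7.7.1 per the submitters' processing notes). A second deposited table, of quantile normalized log2 values made by the authors, served as an alternative. Groups and replicate numbers were taken from the sample titles.

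Control spots and outlier spots were left out, which left 82 probe values missing, and the remaining arrays of those probes entered the fit. Probes entered when 2 or more arrays in any group had them well above background. On the log2 scale these 25262 probes were quantile normalized across all 16 arrays, and probes sharing a gene name were averaged. Group means were fitted with limma 3.58.1 in R 4.3.3, with Benjamini-Hochberg adjusted p-values across 19367 genes and a threshold of 0.05. Named genes were the targeted gene, the 10 largest changes in each direction, the 6 largest bounds in each direction, up to 3 genes per list, the genes of lipid metabolism the study follows, and, chosen after their values were seen, further members of each list. The genes of the comparison and the lists were chosen with earlier results of these data known, and the Lce, retinoid, Hox and contractile lists after their values were seen. Of the gene names, 14823 matched a current symbol by accession, and 907 of these differed. Some genes are not reported here. Coordinates of probes (mm9) and gene names come from the array files.

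Same-numbered arrays of the shRNAs deviated together with r between -0.0387 and 0.412, and all 16 pairings of arrays with r between -0.34 and 0.412. The highest r was that of the arrays numbered 4. The main fit did not take the numbers as pairs, and a replicate block was among the alternatives. The procedure was tested on simulated data with 200 changed genes and noise drawn independently for each array. Of changes of 1.5, 87% were called, and of changes of 0.75, 49%. Among the unchanged genes 13 were called. Alternatives were the 75th percentile or the level of 8 spike-in probes as the scale, normexp with an offset of 50, the polysomal arrays alone, the authors' table, other filters, the brightest probe, slide or replicate blocks, an intensity trend, and each array left out. Promoters were aligned with Biostrings 2.70.1, and figures drawn with matplotlib 3.10.9.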

Additional observations from a re-analysis of the deposited data

Results flagged for a closer look

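In 17 of 268 sets of 4 arrays, each a named gene with one shRNA, 1 array lay far from the other three by Dixon's test, which chance gives in about 1 set of 20. Among genes described above, these were the scramble replicate 3 of Tmem45a (9.90), Thbs1 (11.5) and Sbk3 (1.76, not well above background), the eIF6 shRNA replicate 4 of Ms4a4b (9.30), Serpinb2 (2.87, not well above background) and Eif5a2 (7.44), and the scramble replicate 4 of Lpin1 (5.11) and Mmp9 (4.46). Krt23 had a far array with each shRNA, scramble replicate 2 (2.18) and eIF6 shRNA replicate 2 (0.96), and Tslp one at eIF6 shRNA replicate 1 (1.08). The rest were scramble replicate 4 of Mrps6 (13.2), Zfp622 (14.5), Sars (15) and Spc24 (10.6), eIF6 shRNA replicate 3 of Echs1 (13.5) and eIF6 shRNA replicate 4 of Prkcz (7.84).

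For 32 of 134 named genes the polysomal change differed from the subpolysomal change (limma, adjusted p under 0.05). The values that follow are the polysomal minus the subpolysomal change. Among the genes of the largest decreases it was -2.57 for Dpep1, -1.79 for Creb3l1, -0.885 for Lce1c, -0.816 for Lce1f, -2.31 for Col1a2, -2 for Lox, -0.86 for Chst1 and -1.39 for Tmem45a. It was -1.07 for Eif6 and 1.93 for Tnip3. Among matrix genes and proteases it was -1.04 for Mfap5, -2.23 for Rcn3, -1.31 for Crtap, -1.35 for Mmp23 and -0.994 for St14. Among secreted and immune genes it was -1.87 for Fetub, -1.98 for Serpinf1, -1.1 for Ifitm3, -1.74 for Ifi27 and -2.53 for Ptx3. It was -1.2 for Ldhb, 1.81 for Aldoc, -0.776 for Cebpd, 0.898 for Hist1h2be and -0.42 for Nsa2, which rose by 0.72 in subpolysomes and by 0.30 on polysomes.

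The others were not well above background with one of the shRNAs on polysomes, so the difference is a fitted value and not a size. They are Rnf144a (-2.27), C1qtnf5 (-3.99), Slc7a8 (-2.41), Krt23 (-1.74), Sbk3 (1.37), Try4 (1.87) and Serpina3n (1.91).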

How the results depend on the processing

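The counts of 2072 lower and 2148 higher genes stayed within 1.5 times under each alternative except scaling to the spike-in probes, which gave 1044 and 98. Eif6 was then not called (-1.37, adjusted p = 0.104). With 1 array left out the counts ran from 1740 to 2267 lower and from 1686 to 2288 higher, and Eif6 from -1.10 to -1.04. With the replicate number as a block, 2003 genes were called lower and 2087 higher, and the block changed the call of no named gene. The list medians here are relative to the median gene. Ribosomal proteins were at 0.0723 when arrays were scaled by their 75th percentile, and again at 0.0723 on the spike-in scale. Normexp correction gave 0.156 for P450 enzymes, -0.285 for collagens, -0.483 for matrix glycoproteins, -0.512 for collagen modification, -0.111 for metalloproteinases, -0.397 for mesenchymal markers and -1.34 for Lce genes. Keeping probes detected on all 4 arrays of a group gave -0.597 for collagen modification, -1.43 for mesenchymal markers and -0.337 for Hox genes. Without a detection filter, matrix glycoproteins were at -0.874, mesenchymal markers at -0.451 and Lce genes at -1.94. With the brightest probe, collagen modification was at -0.589 and mesenchymal markers at -0.464. With 1 array left out, metalloproteinases ran from -0.592 to -0.374, mesenchymal markers from -1.11 to -0.646 and retinoid genes from 0.0831 to 0.232.

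Changes that turned below 0 on the spike-in scale were those of Rpl37a (-0.32), Rplp2 (-0.38), Zfp622 (-0.02196), Nsa2 (-0.16), Sars (-0.19), Mvd (-0.02569), Tm7sf2 (-0.04388), Echs1 (-0.15), Ndufa6 (-0.03049), Atp5sl (-0.02785), Prkcz (-0.002615), Cebpb (-0.35), Srebf1 (-0.28), Acly (-0.25), Acaca (-0.40), Scd1 (-0.29), Hmgcs1 (-0.31) and Foxo1 (-0.30). A further 37 named genes besides Eif6 kept their direction on that scale and lost the call, among them Perp (0.65, adjusted p = 0.625), Aldoc (1.30, adjusted p = 0.141), Onecut1 (0.78, adjusted p = 0.59), Mdm2 (-1.31, adjusted p = 0.136) and Cebpd (-1.47, adjusted p = 0.0611). Acaca was at -0.008286 with normexp and at -0.12 with the brightest probe, and Rplp2 at -0.00325 in the authors' table. With 1 array left out, changes near 0 took both signs. Rplp2 ran from -0.01625 to 0.00906, Gars from -0.26 to 0.13, Cebpb from -0.006666 to 0.21, Atf4 from -0.16 to 0.09048, Srebf1 from -0.08308 to 0.45, Srebf2 from -0.12 to 0.06788, Fasn from -0.10 to 0.0284 and Scd1 from -0.01251 to 0.38. None of these was called. Of 119 named genes called, 11 lost the call without 1 array or another: Zfp622, Nsdhl, Cpt2, Ndufa6, Atp5sl, Edem1, Crebl2, Egr3, Gsta2, Echs1 and Prkcz. The causes were not tested. Genes near background have the least certain sizes of change.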

Other observations

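Genes of retinoid handling, put together as a list after their values had been seen, moved in both directions. Of 28 tested, 8 were called higher and 5 lower, with a median of 0.139 (-0.367 on the spike-in scale), which relative to the median gene was 0.203 without scramble replicate 4 and 0.232 without eIF6 shRNA replicate 1. Rarb, of a retinoic acid receptor, rose by 2.22 (SE 0.20), Dhrs3, of a retinal reductase, by 1.83, Rdh10, of a retinol dehydrogenase, by 1.62, and Stra6, of the receptor for retinol-binding protein, by 1.52. Cyp26b1, of an enzyme that breaks down retinoic acid, fell by 0.97 and the receptor gene Rarg by 0.51.

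Hox genes, which set position along the body axis, were divided. Of 27 tested, 10 were called lower and 5 higher, with a median of 0.00657. Hoxb2 fell by 2.50 (SE 0.14), Hoxd8 by 2.24 and Hoxa7 by 1.45, while Hoxc9 rose by 1.54 (SE 0.15) and Hoxc6 by 0.96. Of 26 contractile genes of smooth muscle, 10 were called lower and 3 higher, with a median of -0.194. Myl9, of a myosin light chain, fell by 3.16 (SE 0.11) and Tpm2, of a tropomyosin, by 1.53, while Myocd, of a coactivator of smooth muscle genes, rose by 0.97.

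Chromosomes differed in their share of calls. On chromosome 19, 22% of 655 genes were called higher and 5.8% lower, with a median of 0.149 on polysomes and 0.143 in subpolysomes. On chromosome 14, 17.5% of 762 genes were called lower and 7.09% higher, on chromosome 6 16.3% and 6.85% of 964, and on chromosome 2 16.1% and 7.63% of 1454. Their medians were -0.0649, -0.0834 and -0.0565 on polysomes and -0.0347, -0.0629 and -0.0783 in subpolysomes. Of all genes tested, 10.7% were called lower and 11.1% higher. The chromosomes named are those with the largest shares in each direction.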
